A study of Caenorhabditis elegans with 6 samples.

Results

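The *pud* genes of *Caenorhabditis elegans* are named for proteins found at higher abundance in *daf-2* mutants. The gene *daf-2* encodes the receptor of the insulin/IGF-1-like pathway, which holds the FOXO transcription factor DAF-16 out of the nucleus, so genes activated by DAF-16 rise when the receptor is weakened. PUD-1 and PUD-2 are small nematode proteins that bind each other, and the family has been placed in the intestine and the hypodermis. What the proteins do is not established. The family was taken here as every gene whose symbol is *pud-1* to *pud-4*, numbered copies included, which gave 6 of the 46726 genes in the count files (*pud-1.1*, *pud-1.2*, *pud-2.1*, *pud-2.2*, *pud-3* and *pud-4*). *pud-3* had drawn attention to the family by its low level in the same comparison. The values of the family in the mutant against the wild type are therefore given as a description, without p-values.

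RNA was measured in *mbl-1(tm1563)* mutants and in the Bristol wild-type strain N2, with 3 biological replicates of each. *mbl-1* encodes the *C. elegans* muscleblind protein, an RNA-binding splicing factor, and the *tm1563* deletion takes out an exon that every *mbl-1* isoform uses. Each library came from a population of whole animals at day 2 of adulthood, the 5th day after hatching, and was made from poly(A) RNA. Both strains grew at 20 °C on HT115 bacteria with the empty RNAi vector, and both were moved at the L4 stage to 10 µM 5-fluorouracil, which stops progeny from hatching. Since whole animals were used, fewer cells of a type and less RNA per cell cannot be told apart.

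Between 17574738 and 20750318 counts fell on genes in a library, and 17078 to 17564 genes had at least 1 count. The targeted gene had 70, 138 and 106 counts in *mbl-1(tm1563)* replicates 1 to 3, against 233, 245 and 228 in N2. Its log2 fold change was -1.14 (SE 0.24, edgeR's quasi-likelihood test, Benjamini-Hochberg adjusted p = 0.0382). Replicate 1 of the mutant stood apart from its 2 companions. A chi-square comparison of counts over genes gave 58.3 per degree of freedom between mutant replicates 1 and 2, 24.04 between 1 and 3 and 11.96 between 2 and 3, against 3.78 to 8.81 between N2 replicates. The mutant replicates thus differed from each other more than the N2 replicates did, in every pair. Of 12335 genes tested, 141 (1.14%) were called lower in the mutant and 84 (0.681%) higher. A gene was called where its adjusted p was under 0.05 and its level differed by 2-fold or more.

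The 6 *pud* genes lie in a block of 8893 bases on chromosome V, from 2322038 to 2330930 in the WBcel235 assembly. They form 3 divergent pairs, in which the genes of a pair face away from each other. From left to right the pairs are *pud-1.2* and *pud-2.2*, *pud-3* and *pud-4*, and *pud-2.1* and *pud-1.1*. The outer pairs mirror each other around the middle pair. The start codons are 474 bases apart in both outer pairs, against 1525 bases in the middle pair. No other annotated gene overlaps any of the 6, so counting without regard to strand mixed no other annotated gene into their counts.

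The outer genes are copies in structure. *pud-1.1* (WBGene00017499, 2330429 to 2330930) and *pud-1.2* (WBGene00021236, 2322038 to 2322566) have the same coding length of 453 bases and the same intron of 46 bases. *pud-2.1* (WBGene00017490, 2329444 to 2329954) and *pud-2.2* (WBGene00017500, 2323014 to 2323524) both have exons of 253 and 212 bases, an intron of 46 bases and a coding length of 462 bases. The middle genes have no such copy. *pud-3* (WBGene00017501, 2324634 to 2325152) is 1 exon of 519 bases, and *pud-4* (WBGene00017498, 2326678 to 2327282) has 2 annotated transcripts that together cover 564 bases of exon. The files count genes, so the transcripts of *pud-4* are not separated.

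**Figure D1:**
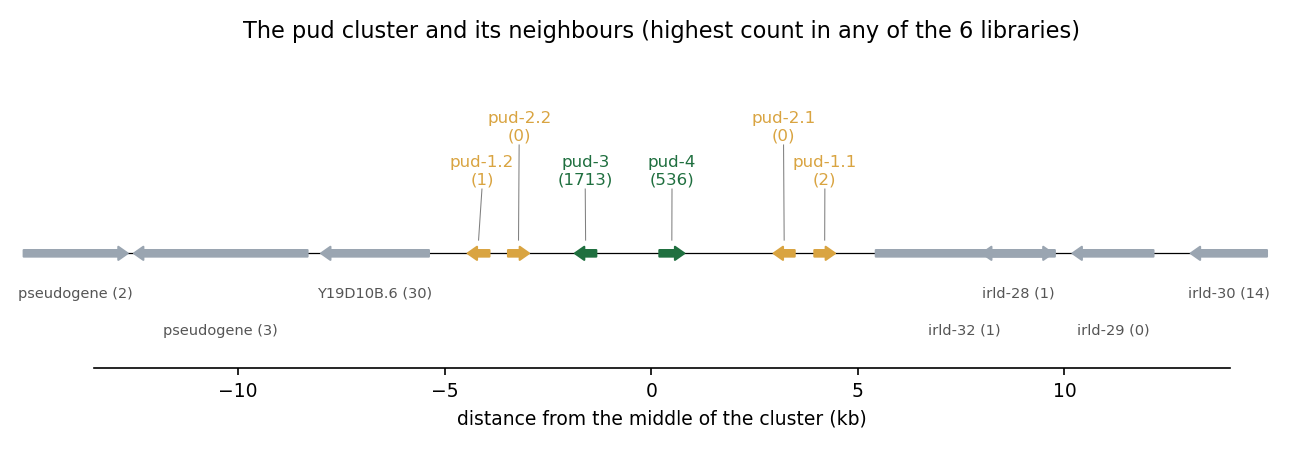
Map of the *pud* genes and their neighbours on chromosome V, with distance from the middle of the block in kb on the horizontal axis. Arrows show the direction of each gene, and the highest count of the gene in any of the 6 libraries is given in parentheses. The outer *pud* genes (yellow) reach at most 2 counts, while *pud-3* reaches 1713 and *pud-4* reaches 536 (green).

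Counts on the family came almost entirely from *pud-3* and *pud-4*. *pud-2.1* and *pud-2.2* had 0 counts in every library. *pud-1.2* had 1, 0 and 1 counts in *mbl-1(tm1563)* replicates 1 to 3 and 0 in each N2 library. *pud-1.1* had 0 counts in each mutant library and 0, 2 and 1 in N2 replicates 1 to 3. These 4 genes did not pass the filter on low counts, and no fold change is given for them because both strains were at or under 3 counts. A count of 0 in these libraries allows up to 0.149 to 0.177 CPM (counts relative to the scaled library total), which for the *pud-2* copies is 0.321 to 0.382 RPKM (CPM per kb of exon). That limit holds only for reads that the authors' counting kept, and it covers counting error only.

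The authors' counting left out reads that aligned to more than 1 place, and near-identical copies lose reads this way. Structural copies were therefore counted over the genome by a definition chosen after the values were seen, which asks for the same ordered lengths of coding exons and introns as another gene on the same chromosome. All 4 outer *pud* genes met it, and all 4 had at most 3 counts in every library. Of the 274 other genes that met it, 214 (78.1%) had at most 3 counts in every library, against 4293 of 18747 multi-exon coding genes without such a copy (22.9%). The small heat shock genes *hsp-16.1*, *hsp-16.11*, *hsp-16.48* and *hsp-16.49*, duplicated in the same way on chromosome V, were at 0 in all 6 libraries. The sequences of the copies were not compared here, and how many *pud-1* and *pud-2* reads were left out was not tested. Their counts are therefore a lower limit on their RNA, and a difference between the strains was not detectable in them.

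Entries for reads aligned to several places made up 7.34%, 8.08% and 8.06% of the file totals in *mbl-1(tm1563)* replicates 1 to 3, against 9.87%, 9.74% and 9.81% in N2. The strains did not overlap in this share, which averaged 7.83% ± 0.420 in the mutant and 9.81% ± 0.0650 in N2 (SD, n = 3 each, p = 0.1 in a two-sided exact permutation test, the smallest p that 3 libraries against 3 can give). An entry may be an alignment rather than a read, so these are not measured shares of reads. The genes these entries came from are not in the counts, and the part of the *pud* copies in the difference was not tested.

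*pud-3* was the most abundant member as counted. It had 187, 158 and 203 counts in *mbl-1(tm1563)* replicates 1 to 3, against 1586, 1713 and 1123 in N2. After scaling these were 9.68, 8.98 and 11.1 CPM in the mutant and 83.7, 85.2 and 66.4 CPM in N2. Every mutant library was far below every N2 library, and replicate 3 was the lowest of the N2 libraries. The mean was 9.91 ± 1.07 CPM in the mutant and 78.5 ± 10.4 CPM in N2 (SD, n = 3 each), a 7.92-fold difference. The log2 fold change was -2.98 (SE 0.13).

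*pud-4* showed the same picture at a lower level. It had 67, 81 and 71 counts in *mbl-1(tm1563)* replicates 1 to 3, against 536, 536 and 349 in N2. These were 3.47, 4.60 and 3.88 CPM in the mutant and 28.3, 26.7 and 20.6 CPM in N2. Again the strains did not overlap, and replicate 3 was again the lowest of the N2 libraries. The mean was 3.98 ± 0.574 CPM in the mutant and 25.2 ± 4.03 CPM in N2 (SD, n = 3 each), a 6.33-fold difference, with a log2 fold change of -2.66 (SE 0.17).

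**Figure D2:**
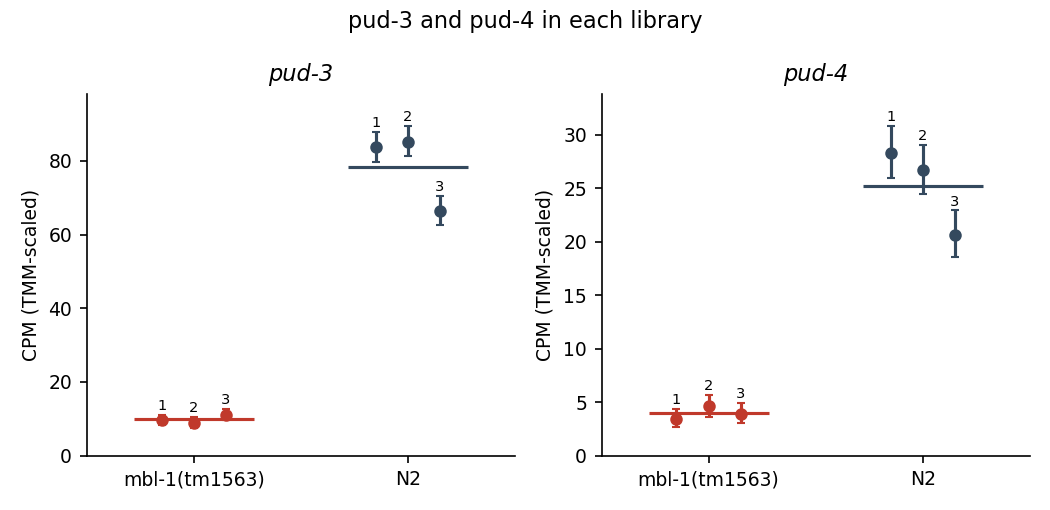
Levels of *pud-3* (left panel) and *pud-4* (right panel) in each library, in CPM after TMM scaling. Points are libraries with their replicate number, bars are exact Poisson 95% intervals that cover counting error only, and horizontal lines are strain means. For *pud-3* the 3 mutant libraries lie between 8.98 and 11.1 CPM and the 3 N2 libraries between 66.4 and 85.2 CPM.

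The counting error of each library was compared with the spread among replicates of its strain. Among the mutant libraries the coefficient of variation of *pud-3* was 10.8%, where counting alone would give 7.40%. Among the N2 libraries it was 13.3%, where counting alone would give 2.60%. For *pud-4* it was 14.4% in the mutant, where counting alone would give 11.7%, and in N2 its spread was also above the 4.59% that counting gives. The replicates of N2 thus differed by more than their counting error, and both genes were lowest in the same N2 library.

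Compared per kb of exon, *pud-3* stood above *pud-4* in every library. *pud-3* had 18.7, 17.3 and 21.3 RPKM in *mbl-1(tm1563)* replicates 1 to 3 and 161, 164 and 128 RPKM in N2. *pud-4* had 6.15, 8.16 and 6.87 RPKM in the mutant and 50.2, 47.3 and 36.6 RPKM in N2. The per-kb ratio of *pud-3* to *pud-4* was 3.03, 2.12 and 3.11 in the mutant libraries, against 3.22, 3.47 and 3.50 in the N2 libraries. Each mutant ratio was below each N2 ratio, and the mean log2 ratio differed by -0.32 (mutant minus N2). The low ratio belonged to mutant replicate 2, in which *pud-3* was lowest and *pud-4* highest among the mutants. *pud-3* was chosen for its low level in the mutant, which favours a low mutant ratio. *pud-4* had at most 81 counts in a mutant library, so nothing is read from the difference in ratio.

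Among 12229 tested genes with a known exon length, *pud-3* ranked 5303rd by mean RPKM in the mutant, within the top 43.4%, and 816th in N2, within the top 6.67%. *pud-4* ranked 7095th in the mutant, within the top 58.0%, and 3347th in N2, within the top 27.4%. *pud-3* was thus among the abundant transcripts of N2 and near the middle of the mutant transcriptome.

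By fold change the 2 genes sat at the low edge of the transcriptome. *pud-3* had the 5th lowest and *pud-4* the 10th lowest log2 fold change of all tested genes. They were the only 2 of the 6 family members that passed the filter. Both were among the 141 genes called lower, which were 1.14% of all tested genes. For 2203 tested genes (17.9%), *pud-3* and *pud-4* among them, the highest mutant library was below the lowest N2 library. Nothing is read from these counts because *pud-3* was chosen from this comparison. The 1103 other tested genes of like exon length, 419 to 664 bases, had a median log2 fold change of 0.04, and 10 of them (0.907%) were called lower and 17 (1.54%) higher. Of those 1103 genes, 1 had a log2 fold change below -2. With each library's trend against exon length removed, the log2 fold change was -3.01 for *pud-3* and -2.69 for *pud-4*.

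**Figure D3:**
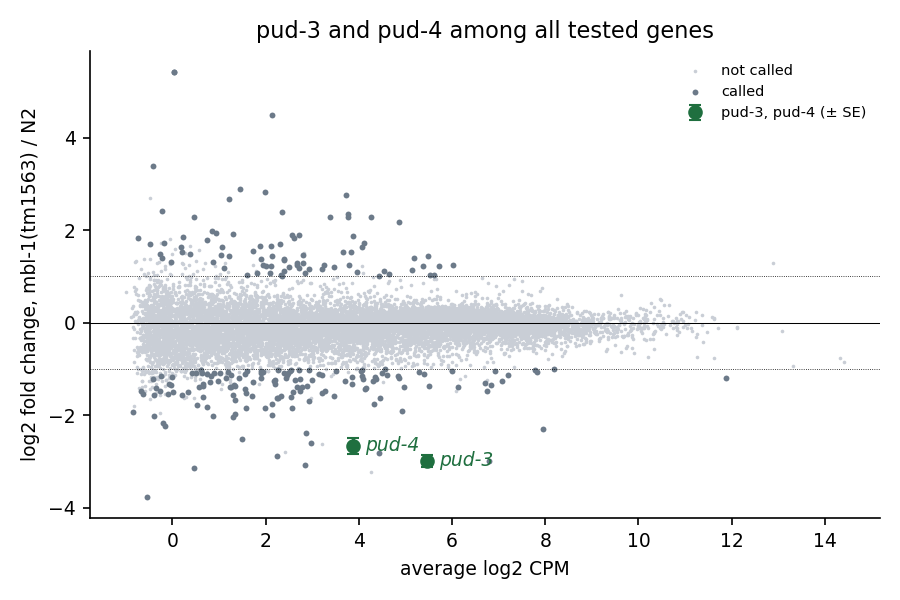
Log2 fold change of *mbl-1(tm1563)* over N2 (vertical axis) against the average log2 CPM (horizontal axis) for each of the 12335 tested genes. Dark points are the genes called lower or higher, dotted lines mark the 2-fold limits, and green points with standard errors are *pud-3* and *pud-4*. They lie at -2.98 and -2.66, below the band that holds most genes of their level.

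The values of both genes moved little with the processing. Over 15 alternatives, which changed the scaling, the filter, the tool, the replicate block, the gene length correction or the libraries used, the log2 fold change lay between -3.09 and -2.87 for *pud-3* and between -2.79 and -2.57 for *pud-4*. Without replicate 1 of the mutant it was -2.97 for *pud-3* and -2.57 for *pud-4*.

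The intestine and the hypodermis are the tissues in which the family has been placed, so their markers were read beside these values. The summed level of 7 intestinal markers (among them *elt-2* and *elt-7*, the GATA factors of the gut, and the gut esterase *ges-1*) ranged over 1055 to 1556 CPM in the mutant and 1491 to 1684 CPM in N2, with overlap (log2 ratio of means -0.24, exact permutation p = 0.2, adjusted p = 0.229). Without replicate 1 of the mutant, the library that stood apart, the intestinal ratio was -0.09. The summed level of 7 hypodermal markers (among them the cuticle collagens *dpy-7*, *rol-6* and *col-19*) ranged over 346 to 391 CPM in the mutant and 393 to 421 CPM in N2, without overlap (log2 ratio of means -0.14, exact permutation p = 0.1, adjusted p = 0.16 over 8 marker lists). The hypodermal sum was mostly *col-19*, with 247 CPM in the mutant and 278 CPM in N2 (means, n = 3 each), and its members went both ways, with log2 fold changes of 1.18 for *rol-6* and 0.45 for *dpy-7* and of -0.67 for the transcription factor genes *elt-3* and *nhr-25*. With scaling by library size alone the hypodermal ratio was -0.06. The exact permutation test cannot give a p below 0.1 with 3 libraries against 3. No marker on either list was called in either direction, and none was at 0 in all libraries. Of all tested genes 1.14% were called lower and 0.681% higher, so lists this short can hold no call at those shares. The part of these tissues in the low *pud* values was not tested.

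Markers of the other tissues were summed in the same way. The summed markers were lower in all mutant than in all N2 libraries for body wall muscle (690 to 883 CPM in the mutant, 957 to 1059.5 CPM in N2), for pharynx (48.8 to 58.7 CPM in the mutant, 67.6 to 73.5 CPM in N2) and early embryo (mean 2.52 CPM in the mutant, 4.39 CPM in N2), and higher for sperm (mean 1.77 CPM in the mutant, 0.892 CPM in N2). Those of neurons (230 to 236 CPM in the mutant, 236 to 243 CPM in N2) and germline (3129 to 4979 CPM in the mutant, 4680 to 5069 CPM in N2) overlapped. The log2 ratios of the means lay between -0.80 for early embryo and 0.99 for sperm. No adjusted p in the exact permutation test was below 0.16. That test cannot give a p below 0.1 with 3 libraries against 3, so no list could have passed it. Without replicate 1 of the mutant the germline ratio was -0.09 and the sperm ratio 0.52. Only 1 of the 6 sperm markers, *fer-1*, passed the filter on low counts, at 0.613 CPM in the mutant and 0.589 CPM in N2 (means, log2 fold change 0.06), so the higher sperm sum came from genes too low to be tested. Of the 6 early embryo markers 4 were tested, and of the 6 pharynx markers 5. None of the markers that were tested was called, where 1.14% of all tested genes were called lower and 0.681% higher. The part of these tissues in the *pud* values was not tested.

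The genes around the block had few counts. Apart from the family, 12 annotated genes lie within 20 kb of it, and 11 of them had at most 14 counts in any library. These 11 are pseudogenes or *irld* genes, which code for proteins with the L domain of insulin and EGF receptors. The only neighbour that passed the filter was *Y19D10B.6* (WBGene00021235, 2318490 to 2321101), 0.937 kb to the left of the block. It had 30, 28 and 26 counts in *mbl-1(tm1563)* replicates 1 to 3, against 24, 19 and 15 in N2, or 1.52 ± 0.0901 CPM in the mutant and 1.03 ± 0.204 CPM in N2 (SD, n = 3 each). The log2 fold change of 0.55 (SE 0.22) did not pass the test (adjusted p = 0.185, unadjusted p = 0.0380, edgeR's quasi-likelihood test). No neighbour was called, by edgeR or by DESeq2. The next gene to the right that passed the filter was *gst-10*, a glutathione S-transferase gene 231 kb from the block, named after its values were seen, which was called lower with a log2 fold change of -1.08 (adjusted p = 0.0483, edgeR's quasi-likelihood test).

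The tested genes with the profile most like that of *pud-3* were found by the root mean square difference of log2 CPM, each gene set relative to its own N2 mean, over the 6 libraries. *pud-4* was the second nearest of all tested genes, at 0.301. The 5 nearest genes outside the family were *T22B7.7* (0.239), *F42G10.1* (0.338), *acox-1.2* (0.395), *ugt-66* (0.463) and *Y55B1BL.1* (0.485). None of the 5 lies on chromosome V, with *T22B7.7* and *F42G10.1* on chromosome X, *ugt-66* and *Y55B1BL.1* on chromosome III and *acox-1.2* on chromosome I.

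*T22B7.7* was at -2.80, -2.93 and -3.19 log2 units from its N2 mean in *mbl-1(tm1563)* replicates 1 to 3, against 0.26, -0.16 and -0.10 in N2, a log2 fold change of -2.98 (SE 0.15). *acox-1.2*, which codes for an acyl-CoA oxidase of peroxisomal fatty acid oxidation, had 6.11, 4.89 and 4.86 CPM in the mutant and 48.3, 24.9 and 39.8 CPM in N2, a log2 fold change of -2.83 (SE 0.26). *ugt-66*, a UDP-glucuronosyltransferase gene of the detoxification system, had 0.104, 0.284 and 0.382 CPM in the mutant and 2.69, 1.64 and 2.54 CPM in N2, a log2 fold change of -3.14 (SE 0.40). *F42G10.1* (log2 fold change -2.88) and *Y55B1BL.1* (log2 fold change -2.38) were alike in size. The measure picks genes with a large drop in the mutant, so their fold changes are a description. Replicate 3, the N2 library in which both *pud* genes were lowest, was not the lowest N2 library for any of these 5 genes. It was the lowest for other genes outside the family, such as *Y19D10B.6* and *ins-7*. The share of all tested genes that were lowest in it was not counted, so nothing is read from this.

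**Figure D4:**
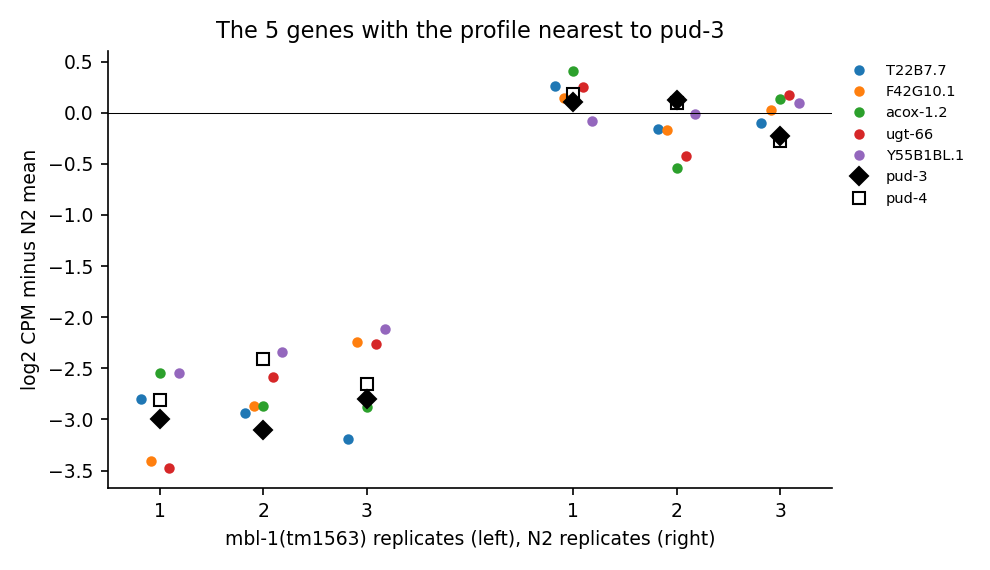
Log2 CPM of *pud-3* (diamonds), *pud-4* (squares) and the 5 other tested genes with the nearest profiles (coloured points), each relative to its own N2 mean. The 3 mutant libraries are on the left and the 3 N2 libraries on the right. In N2 replicate 3 *pud-3* and *pud-4* lie together below the other genes, and in the mutant all 7 genes lie more than 2 log2 units below their N2 mean.

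The family takes its name from its response to *daf-2*, and the insulin pathway was therefore described beside it, by lists of genes drawn up from general knowledge of the pathway. The 20 genes of insulin signalling itself showed no call, where 1.14% of all tested genes were called lower and 0.681% higher. At these shares a list of 20 can show no call without differing from other genes. The list includes the receptor gene *daf-2*, the PI3 kinase gene *age-1* and the kinases *akt-1*, *akt-2*, *pdk-1* and *sgk-1*. It also includes the phosphatase *daf-18* and the transcription factors *daf-16* and *pqm-1*. All 20 were tested, their log2 fold changes ranged over -0.59 to 0.27 with a median of -0.15, against a median of -0.04 over all tested genes, and 14 were negative and 6 positive. At an unadjusted p under 0.05, 3 were lower and 2 higher in edgeR's quasi-likelihood test, and DESeq2 called none. Over all 12335 tested genes, 1718 were lower and 1210 higher at that limit. Of the same 12335 genes, 6814 had a negative and 5521 a positive log2 fold change.

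None of the 3 regulators of the name-giving response passed the test. *daf-2* had 116 ± 43.3 CPM in the mutant and 155 ± 9.91 CPM in N2 (log2 fold change -0.42, SE 0.23, adjusted p = 0.315, edgeR's quasi-likelihood test, n = 3 each). *daf-16* had 126 ± 32.7 CPM in the mutant and 151 ± 5.90 CPM in N2 (log2 fold change -0.25, SE 0.17, adjusted p = 0.396 in the same edgeR test). For both genes replicate 1 was the lowest mutant library, and replicate 2 lay just above the highest N2 library. *pqm-1*, which codes for a zinc finger factor that acts beside DAF-16 on *daf-2*-responsive genes, had 24.8 ± 0.989 CPM in the mutant and 21.3 ± 0.649 CPM in N2 (log2 fold change 0.22, SE 0.08, adjusted p = 0.158 in the same edgeR test). For *pqm-1* the unadjusted p was 0.0273 in the same edgeR test. At an unadjusted p under 0.05, 1210 of all 12335 tested genes were higher in that test. RNA levels do not show the activity or location of the proteins.

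Of the genes known to be raised by DAF-16, a few were called lower in the mutant. The list has 32 genes, 25 of which were tested. Of these, 3 were called lower (12%, against 1.14% of all tested genes) and none higher (against 0.681%). DESeq2 called 4 lower, with *sod-3*, the mitochondrial superoxide dismutase gene, as the fourth, and none higher. At an unadjusted p under 0.05 in edgeR's test 11 were lower and 3 higher, against 1718 and 1210 of all 12335 tested genes. The median log2 fold change was -0.28, against -0.04 over all tested genes. There were 19 negative and 6 positive values, against 6814 and 5521 over all tested genes. At an adjusted p under 0.05 in edgeR's test but under 2-fold, *ctl-2*, *gpd-2* and *gst-4* were lower (log2 fold changes -0.60, -0.44 and -0.67). By the same limits *lys-7* and *lys-8* were higher (0.82 and 0.39). The list holds genes that the study itself had examined, and it was drawn up with results of these data known.

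The 3 genes called lower code for metal-binding proteins. *mtl-1* and *mtl-2* code for metallothioneins, and *ftn-1* codes for the iron-storage protein ferritin. *mtl-1* had 2.02, 1.53 and 1.47 CPM in *mbl-1(tm1563)* replicates 1 to 3, against 7.71, 4.68 and 5.74 CPM in N2 (log2 fold change -1.84, SE 0.24, adjusted p = 0.00745, edgeR's quasi-likelihood test). *mtl-2* had 17.8 ± 1.67 CPM in the mutant and 39.6 ± 4.45 CPM in N2 (SD, n = 3 each, log2 fold change -1.15, SE 0.12, adjusted p = 0.00306, edgeR's quasi-likelihood test). *ftn-1* had 0.880, 0.625 and 0.873 CPM in the mutant and 8.08, 2.54 and 3.08 CPM in N2 (log2 fold change -2.51, SE 0.52, adjusted p = 0.0368, edgeR's quasi-likelihood test). The strains did not overlap for any of the 3, and 17.9% of all tested genes had all mutant libraries below all N2 libraries. The *ftn-1* mean in N2 was carried by replicate 1. *mtl-2* was called in all 15 alternatives, *mtl-1* in 14 and *ftn-1* in 11. Without replicate 3 of the mutant, *mtl-2* was the only gene of the list called.

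Genes known to be lowered in *daf-2* mutants gave 1 call. Of 15 listed genes 12 were tested, none was called lower and 1 (8.33%, against 0.681% of all tested genes) was called higher. Of these 12, 7 had a negative and 5 a positive log2 fold change, against 6814 and 5521 of all tested genes. The median was -0.04. At an unadjusted p under 0.05 in edgeR's test 4 were lower and 5 higher, against 1718 and 1210 of all 12335 tested genes. At an adjusted p under 0.05 in that test but under 2-fold, *vit-5*, *pept-1* and *nuc-1* were lower (log2 fold changes -0.93, -0.82 and -0.68). By the same limits *dod-19* was higher (0.75). DESeq2 called none lower and 2 higher. The gene called higher was *ins-7*, an insulin-like peptide gene that the study also examined, with 1.71, 1.53 and 1.80 CPM in the mutant and 0.633, 0.498 and 0.237 CPM in N2 (log2 fold change 1.85, SE 0.31, adjusted p = 0.0184, edgeR's quasi-likelihood test). At these low levels *ins-7* was called in only 9 of 15 alternatives and was lost with any N2 library left out. *pud-3* and *pud-4* lay further below N2 than any gene of the 3 lists, but *pud-3* was chosen for its low level, so nothing is read from this.

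**Figure D5:**
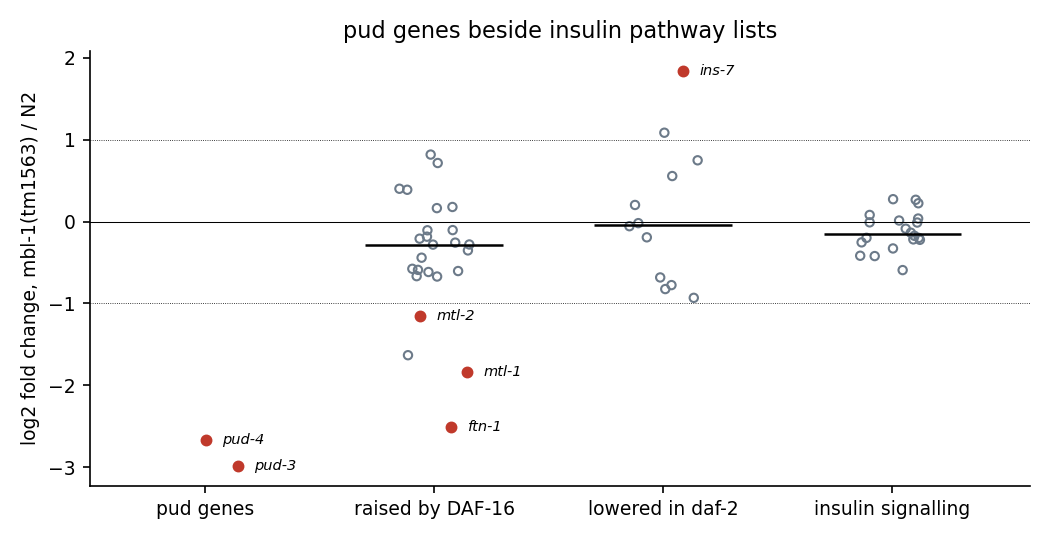
Log2 fold change of *mbl-1(tm1563)* over N2 for the *pud* genes and for the tested genes of the 3 insulin pathway lists. Filled points are called genes, open points are genes not called, horizontal bars are list medians and dotted lines mark the 2-fold limits. *pud-3* and *pud-4* at -2.98 and -2.66 lie below all listed genes, the nearest of which is *ftn-1* at -2.51.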

How the data were processed

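The 6 libraries were grouped by strain and replicate from their labels. The deposited values were raw counts per gene, which the authors had made by STAR alignment against WBcel235 and HTSeq counting without strand (versions not given in the sources used here). Reads placed at several sites or on several genes stood only in closing totals and were not used as genes. Symbols and structures came from Ensembl release 115 of WBcel235, which held 46364 of 46726 identifiers (99.2%). It gave *pud-2.2* to 2 genes, and the position of *pud-2.1* in RefSeq separated them.

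Genes passing filterByExpr (minimum count 10, total 15) were fitted in R 4.3.3 with edgeR 4.0.16 (TMM scaling, robust quasi-likelihood test, strain as the only factor), and p-values were adjusted by Benjamini-Hochberg over 12335 genes. A call needed an adjusted p under 0.05 and a 2-fold change. CPM used TMM-scaled totals. Summed markers were compared by two-sided exact permutation. Alternatives included DESeq2 1.42.0, other scalings and filters, a length trend correction, a replicate block and omission of each library. The fits were tested on simulated data. Named genes were the family, tested neighbours within 20 kb, the 5 profiles nearest *pud-3*, *mbl-1*, *daf-2*, *daf-16*, *pqm-1* and called list members. List members under 2-fold with an adjusted p under 0.05 are also named. The members and lists were chosen with earlier results of these data known.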

Additional observations from a re-analysis of the deposited data

How the results depend on the processing

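Over all alternatives *pud-3* and *pud-4* kept their direction. With a library left out, the log2 fold change ranged from -3.09 to -2.87 for *pud-3* and from -2.79 to -2.57 for *pud-4*. Replicate numbers are shared by the strains, but their deviations correlated at 0.111, 0.00812 and 0.130, so the numbers were not taken as pairs. With the replicate block the values were -2.98 and -2.66, 108 genes were called lower and 60 higher, and no gene of the list lowered in *daf-2* mutants was called higher (0, against 1). That count was also 0 with at least 10 counts in every library, and it was 2 with RLE scaling, library size alone, no filter on low counts, DESeq2 or the length trend removed, where *dod-22* joined *ins-7*.

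With a library left out, the count of genes called lower ranged from 54 (without mutant replicate 3) to 234 (without mutant replicate 2), and was 58 without N2 replicate 1 and 75 without N2 replicate 3. The count called higher ranged from 31 to 134 in the same settings, and was 33 without N2 replicate 1 or 3. Calls in the list raised by DAF-16 ranged from 1 to 4 lower, and in the list lowered in *daf-2* mutants from 0 to 1 lower (*vit-5*, without mutant replicate 2) and from 0 to 2 higher. The cause was not tested. With library size alone the neuronal marker ratio turned to 0.04, and without mutant replicate 1 the intestine ratio was -0.09 (against -0.24), germline -0.09 (against -0.25) and sperm 0.52 (against 0.99). Summing the *pud-1* copies and the *pud-2* copies left them under the filter and gave no value, and the share of read-length windows unique in the genome was not computed. With 3 libraries a strain, genes of few counts carry wide error.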
